A study of Mus musculus with 59 samples.

Results

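The transcripts described here mark the leucocytes of the mouse uterus other than neutrophils: 43 genes, chosen by name as standard markers of all leucocytes (1 gene), macrophages and monocytes (14), dendritic cells (4), eosinophils (5), mast cells (4), T cells (5), B cells (2) and NK or cytotoxic lymphocytes (8). Of these, 42 were among the 21706 genes of the deposited tables, and Trac was not analysed here. They were followed through 12 groups of libraries. The females were either controls (Esr1f/-) or epithelial knockouts (epiERa-/-, Esr1f/- Wnt7aCre/+), and were taken on D0.5 or D3.5 post coitum, where D0.5 is the day of the vaginal plug. Esr1 encodes the oestrogen receptor ERα, and Wnt7aCre deletes its floxed copy in uterine epithelium. Every female, controls included, carried 1 floxed and 1 null Esr1 allele, so the controls were heterozygous in all their cells. The females were virgins of about 2 to 6 months at mating, and were mated with males whose Esr1 was intact (Esr1f/f or C57BL/6). From each uterus a piece was frozen untreated (U), a piece was frozen after dispase digestion (DU), and sheets of luminal epithelium (LE) were scraped off after the same digestion. DU pieces were taken before scraping. LE libraries numbered 9 controls and 7 knockouts at D0.5, and 4 controls and 6 knockouts at D3.5. The corresponding U libraries numbered 6, 4, 5 and 5, and the DU libraries 4, 3, 3 and 3. The 59 libraries came from 29 mice, and total estimated counts ran from 11305100 to 108002000 a library. Each tissue had its own batch of RNA isolation, and tissue and batch cannot be told apart where LE, U and DU are compared.

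Macrophages are the resident phagocytes of the uterine stroma and muscle, and depend on signals through the receptor encoded by Csf1r. Eosinophils enter the cycling uterus under oestrogen and are drawn by eotaxin, mast cells depend on Kit signalling and lie mainly in the outer wall, and NK cells of the endometrium depend on Il15 and expand after implantation. Mating brings semen into the lumen and is followed by a short-lived influx of leucocytes, which is dominated by neutrophils and has subsided before the embryo attaches. All measurements are of bulk RNA, in which fewer cells of a type and less RNA per cell cannot be told apart.

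The libraries fitted their tissue labels by marker level. Summed over 4 smooth muscle genes, the median was 16.0 TPM (a transcript abundance scaled to library total, which corrects for transcript length) in control LE at D0.5 and 2092 TPM in control U. For 6 epithelial genes the medians were 4427 and 1931 TPM, and for 6 stromal fibroblast genes 467 and 3845 TPM, so the LE sheets were not free of stroma. Esr1 was lower in knockout LE at D0.5 (log2 difference -2.02 ± 0.19 SE) and at D3.5 (-1.09 ± 0.23), with no overlap between genotypes on either day. In U at D3.5 the genotypes overlapped for Esr1, and the library labelled knockout from mouse 33 was highest of all 10, at 212 CPM (counts scaled to library size, with library sizes adjusted by the TMM method within a tissue). Among the 6 knockout LE libraries of D3.5, those of mice 35, 36 and 37 correlated with one another at 0.933 to 0.96 (log2 CPM across 14506 genes) and with those of mice 31, 32 and 34 at 0.857 to 0.927. Where a member's call was lost without those 3 libraries together or without mouse 33, the value without them is given. The spread between libraries is that between mice.

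Promoter sequence is shown for 4 of the macrophage genes, because they did not move together in the knockout: Fcgr3 and Trem2 were called higher in knockout LE at D0.5, and Cd68 and Itgam lower. The 250 bases before the annotated start are from RefSeq (GRCm38.p6), 5′ to 3′ on the gene's strand. The bases that follow the window were found in an annotated transcript of the gene for Itgam, Fcgr3 and Trem2. For Cd68 they were not, so the placement of its window is less sure. Capitals mark GAGGAA or its reverse complement TTCCTC, the core recognised by PU.1, a transcription factor of myeloid and B cells.
Cd68, chr11:69666171-69666420, minus strand: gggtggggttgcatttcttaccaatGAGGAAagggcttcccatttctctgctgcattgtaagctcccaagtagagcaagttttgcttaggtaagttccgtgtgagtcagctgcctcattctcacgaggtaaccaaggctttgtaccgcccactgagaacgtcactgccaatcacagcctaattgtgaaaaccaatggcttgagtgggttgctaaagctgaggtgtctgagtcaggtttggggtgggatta
Itgam, chr7:128062390-128062639, plus strand: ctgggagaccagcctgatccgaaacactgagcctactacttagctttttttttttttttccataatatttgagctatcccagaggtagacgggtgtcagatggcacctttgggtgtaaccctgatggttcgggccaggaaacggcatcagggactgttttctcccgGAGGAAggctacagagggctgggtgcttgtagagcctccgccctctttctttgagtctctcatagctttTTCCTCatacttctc
Fcgr3, chr1:171059404-171059653, minus strand: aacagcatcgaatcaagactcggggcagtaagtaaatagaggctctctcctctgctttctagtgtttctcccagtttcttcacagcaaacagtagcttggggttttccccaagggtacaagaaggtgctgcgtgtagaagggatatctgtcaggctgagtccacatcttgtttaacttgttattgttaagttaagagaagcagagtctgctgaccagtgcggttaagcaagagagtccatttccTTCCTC
Trem2, chr17:48346151-48346400, plus strand: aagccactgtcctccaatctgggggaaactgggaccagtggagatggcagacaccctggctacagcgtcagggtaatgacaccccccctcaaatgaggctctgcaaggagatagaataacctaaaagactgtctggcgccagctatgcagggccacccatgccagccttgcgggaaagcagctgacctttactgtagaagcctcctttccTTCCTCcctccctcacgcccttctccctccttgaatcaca
The core is present in all 4, with 2 matches in Itgam and 1 in each of the others. Among the other members called in knockout LE at D0.5, it was found for Ptprc, C1qb and C1qc and not for Cd14, Csf1r, Adgre1 or Itgax. The 4 shown therefore do not stand for all called members. Searched on both strands, it occurs in 15 of the 34 members with a promoter in the table (44.1%) and in 7639 of all 32851 promoters (23.25%). For each member only the first listed promoter was searched, while the second share takes every listed promoter, so the shares differ in unit. The members that hold it include the B cell gene Cd79a and the T cell genes Cd3e and Cd8a as well as macrophage genes. The full oestrogen response element GGTCANNNTGACC, which reads the same on both strands, occurs in 21 of the 32851 promoters (0.06%) and in none of the 34. A match is a description of the sequence and shows no binding.

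In the untreated uterus of controls at D0.5, genes of the macrophage list were by far the most abundant of these markers. Lyz2, a lysozyme of macrophages and neutrophils, averaged 674 TPM there. Cd14, the lipopolysaccharide co-receptor, averaged 264 TPM, C1qb, a chain of the complement initiator C1q, 252 TPM, and Cd68, a lysosomal glycoprotein of phagocytes, 163 TPM. Ptprc, which encodes the pan-leucocyte phosphatase CD45, averaged 38.8 TPM. Gzmb, the cytotoxic protease granzyme B, led the lymphoid markers at 40.3 TPM, followed by Nkg7 at 24.9 TPM and Gzma at 20.8 TPM. The highest mast cell marker was Kit at 8.77 TPM, the highest eosinophil marker Prg2 at 7.34 TPM, the highest T cell marker Cd3g at 5.50 TPM and the highest B cell marker Cd79a at 3.95 TPM. Epx, the eosinophil peroxidase that defines the lineage, was near 0 throughout, with group means of at most 0.0724 TPM, and was the one listed member too low to be tested in any tissue. Cd14 and Cd68 averaged more TPM in control LE at D0.5 than in control U, although Ptprc averaged 3.04 TPM in that LE group. Which cells gave the Cd14 and Cd68 RNA was not tested.

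**Figure D1:**
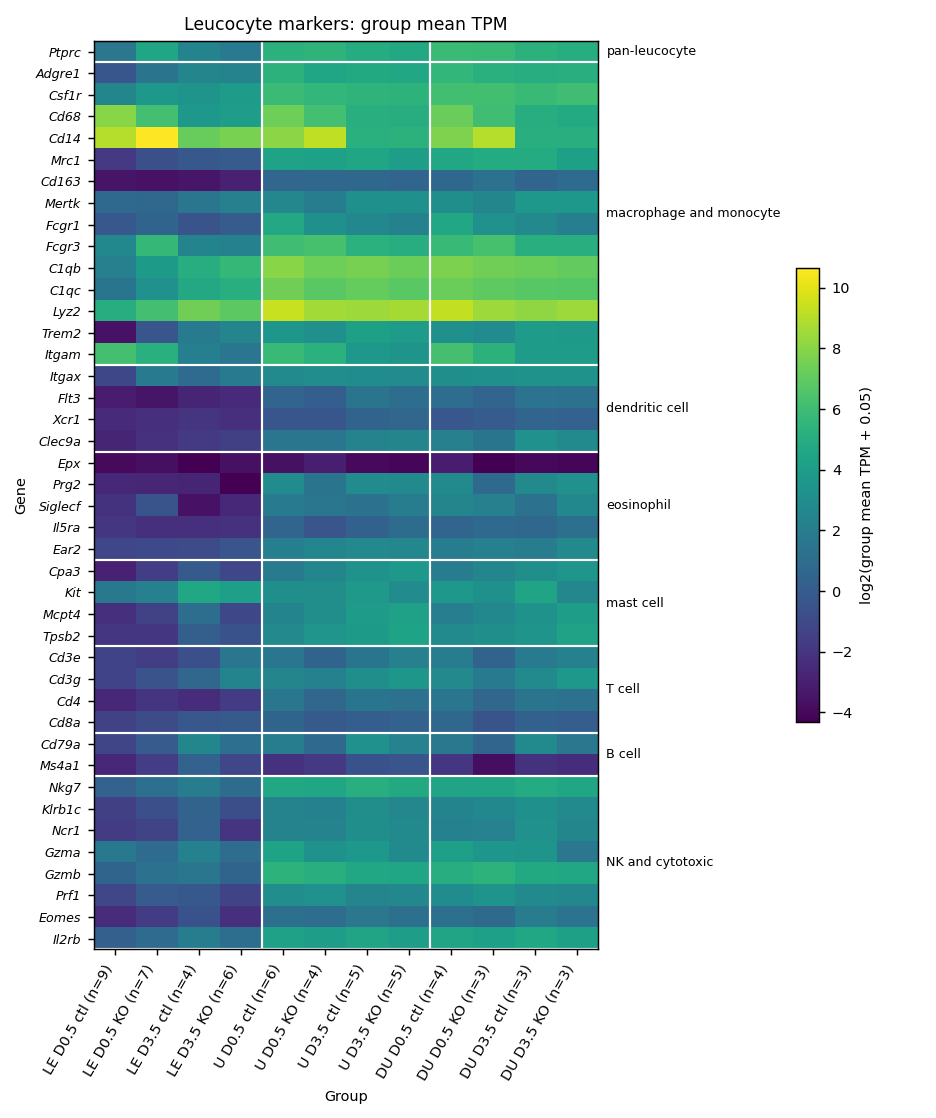
Heat map of the mean TPM of each listed marker (rows, ordered by lineage) in each of the 12 groups (columns), coloured by log2(group mean TPM + 0.05). Macrophage rows are the brightest in U and DU, and in LE most rows are dark except Cd14, Cd68, Itgam, Lyz2 and Kit.

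Most leucocyte transcripts were scarce in the scraped epithelium. In the fit of LE against U over all groups, 37 of 41 tested members were lower in LE and 1 was higher, where 34.7% and 31% of all 16665 genes were called lower and higher and 65.8% were called in all (edgeR quasi-likelihood test, adjusted p under 0.05). The median log2 difference was -3.08 for the members and -0.03 for all genes. Among the lowest in LE were Prg2 (-6.22), the mannose receptor gene Mrc1 (-4.80), the mast cell tryptase gene Tpsb2 (-4.72) and the haemoglobin scavenger receptor gene Cd163 (-4.69). Cd14 was the member called higher in LE (1.88 ± 0.14, adjusted p = 1.62e-15). Cd68 (-0.22), Kit (0.29) and the B cell surface gene Ms4a1 (0.16) passed no test there, and Itgam, the CD11b integrin chain, differed by only -0.46, a call that was lost in 14 of 46 fits that left out 1 library (-0.40 without mouse 33 in U, adjusted p = 0.0669). Per length, control LE at D0.5 held more Cd14 (511 TPM) and Cd68 (251 TPM) than control U, and about as much Itgam (75.1 against 57.2 TPM). Ptprc in the same LE libraries averaged 3.04 TPM. Fitted on the mice with both tissues and the mouse as a block, Cd68 (-0.30) was also called lower and Kit (0.53) higher, which makes 40 called members.

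At D0.5 the luminal epithelium of the knockouts held more transcript of many myeloid markers and less of Cd68 and Itgam. Of the 37 members tested, 9 were higher and 2 lower, where 10.9% of all 15601 genes were called higher, 12.6% lower and 23.6% in either direction. The 9 were Ptprc, 7 of the 13 tested macrophage genes (Csf1r, Cd14, Trem2, Adgre1, C1qb, C1qc and Fcgr3) and the dendritic cell integrin gene Itgax. No eosinophil, mast, T, B or NK member was called in that comparison (edgeR; 14 of the 37 members had an unadjusted p under 0.05). The members' median log2 difference was 0.82, against -0.01 for all genes.

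Ptprc ranged from 0.364 to 34.1 CPM (median 5.52) in the 9 control LE libraries of D0.5 and from 41.7 to 102 CPM (median 89.5) in the 7 knockout libraries. No knockout library reached down to the highest control. The difference was 2.94 ± 0.47 on the log2 scale (7.67-fold, adjusted p = 4.1e-05).
Fcgr3, a low-affinity receptor for IgG, ran from 0.0405 to 17.1 CPM (median 4.11) in controls and from 39.2 to 80.1 CPM (median 45.8) in knockouts, again without overlap (2.93 ± 0.56, adjusted p = 0.00033). Itgax, the CD11c chain of dendritic cells and some macrophages, ran from 0.646 to 5.43 CPM and from 8.98 to 19.5 CPM (3.01 ± 0.45, adjusted p = 1.85e-05). The share of all genes without overlap between groups was not computed, here or elsewhere. A lack of overlap therefore describes the libraries of a gene and was not used as a test. Fcgr3 belongs to a family of similar receptor genes between which reads may be split.
Cd14 was abundant in both genotypes and higher in the knockouts, at 370 to 939 CPM (median 731) against 1169 to 2489 CPM (median 2309.8), a 2.99-fold difference without overlap (1.58 ± 0.19, adjusted p = 6.66e-07). Smaller rises with overlapping libraries were seen for Csf1r, the receptor for CSF1 and IL-34 (17.3 ± 14.4 CPM in controls and 37.4 ± 7.6 in knockouts, SD, n = 9 and 7, 1.11 ± 0.35, adjusted p = 0.0201), for Adgre1, which encodes F4/80 (1.87 ± 1.55 and 5.56 ± 2.91 CPM, 1.58 ± 0.45, adjusted p = 0.0108), and for C1qb (3.67 ± 2.51 and 11.1 ± 4.52 CPM, 1.60 ± 0.44, adjusted p = 0.00842). C1qc, the next chain of the same complex, gave 1.67 ± 0.50 (adjusted p = 0.0154).
Trem2, a lipid receptor of tissue macrophages, was called as well (adjusted p = 0.00144), but on few counts: 7 of 9 control and 3 of 7 knockout libraries were at 0, and the highest held 2.02 and 65.4 estimated counts. Its libraries overlapped, and it was not called on log2(TPM + 1).

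**Figure D2:**
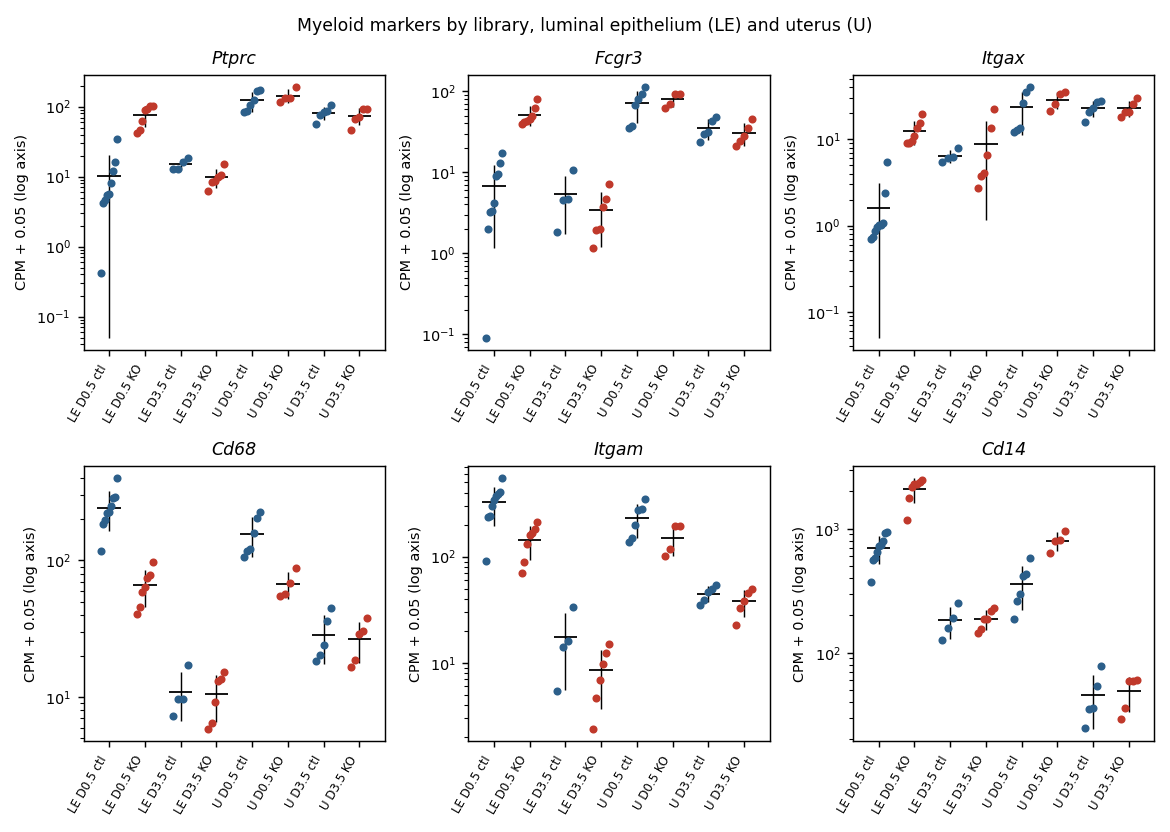
Each panel gives 1 marker in LE and U, with a point per library (CPM + 0.05, log axis; blue control, red knockout), a horizontal line at the group mean and a vertical line of ± 1 SD, which ends at 0.05 where it would pass below 0 CPM. In LE at D0.5 the knockout points for Ptprc, Fcgr3, Itgax and Cd14 lie above all control points, and those for Cd68 lie below.

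Cd68 went the other way in the same libraries. It ran from 118 to 397 CPM (median 224) in control LE and from 40.7 to 97.5 CPM (median 63.4) in knockout LE, 3.68-fold lower without overlap (-1.88 ± 0.25, adjusted p = 3.84e-06). Itgam ran from 90.6 to 545 CPM (median 340) and from 70.3 to 211 CPM (median 160), with overlap (-1.16 ± 0.36, adjusted p = 0.0202). The Itgam call was lost when the library of knockout mouse 25 was left out (adjusted p = 0.0575), and the Cd68 call held when any 1 library was left out, as did the 9 rises. Across the 12 further macrophage genes on a separate list, 5 rose and none fell in knockout LE at D0.5. The adaptor genes Tyrobp (2.91 ± 0.49, adjusted p = 7.83e-05) and Fcer1g (2.88 ± 0.44, adjusted p = 1.99e-05), which carry the signal of several Fc and Trem receptors, were the clearest.

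Neutrophil transcripts moved with these genes. Summed over 10 neutrophil genes, LE at D0.5 held 28.7 to 1346 TPM (median 321) in controls and 2984 to 9856 TPM (median 5849) in knockouts, and 7 of 8 tested neutrophil genes were called higher there. The eighth, the neutrophil surface gene Ly6g, was called lower (-2.26 ± 0.33, adjusted p = 1.27e-05), and the median log2 difference of the 8 was 4.30. Neutrophils also carry Ptprc, Fcgr3, Itgam, Cd14, Tyrobp and Fcer1g. The part of neutrophil RNA in the rises was not tested. The 6 epithelial genes summed to a median of 4427 TPM in control and 2271 TPM in knockout LE at D0.5, and 4 of the 6 were called lower.

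The untreated uterus at D0.5 shared the rise of Cd14 and the fall of Cd68, and showed a fall of Fcgr1. Of 41 tested members 1 was higher and 2 were lower, where 4.98% of 16232 genes were called (2.02% higher, 2.96% lower). Cd14 measured 186, 263, 297, 413, 435 and 576 CPM in control U and 634, 803, 808 and 961 CPM in knockout U, without overlap (1.15 ± 0.31, adjusted p = 0.0365). Cd68 measured 106, 117, 120, 159, 205 and 226 CPM in controls and 54.8, 57.0, 68.7 and 87.4 CPM in knockouts, also without overlap (-1.21 ± 0.29, adjusted p = 0.0183). Fcgr1, the high-affinity IgG receptor gene, measured 17.5, 56.7, 57.6, 60.8, 79.1 and 82.4 CPM in controls and 19.5, 20.4, 21.1 and 21.7 CPM in knockouts (-1.51 ± 0.30, adjusted p = 0.00454). For Fcgr1 it was the lowest control, mouse 1, that overlapped. The Cd14 call was lost in 6 of 10 fits that left out 1 library (controls 1, 2 and 5, knockouts 21, 25 and 27, adjusted p up to 0.12), the Cd68 call in 2 (knockouts 26 and 27, up to 0.0652), and the Fcgr1 call in none. Ptprc, at 124 ± 39.1 CPM in controls and 144 ± 32.5 in knockouts (SD, n = 6 and 4), passed no test in U. Neutrophil genes were higher in the same U libraries, with a summed level of 249 to 2073 TPM in controls and 4649 to 11555 TPM in knockouts and 4 of 8 genes called higher, and epithelial genes were lower, at 1421 to 3652 and 791 to 944 TPM with 3 of 6 called lower. Their part in the Cd14 and Cd68 differences was not tested.

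The digested pieces gave the same 2 directions. Cd14 measured 216, 232, 253 and 325 CPM in control DU at D0.5 and 519, 639 and 799 CPM in knockout DU (1.35 ± 0.21, adjusted p = 0.00204). Cd68 measured 95.5, 122, 131 and 131 CPM against 47.1, 59.0 and 68.8 CPM (-1.04 ± 0.17, adjusted p = 0.0029). Those were the only members called of 41 in DU at D0.5, where 8.06% of 16194 genes were called (3.89% higher, 4.17% lower), and neither call was lost when any 1 library was left out. In DU at D0.5 5 of 8 neutrophil genes were called higher (264 to 1557 TPM in controls, 3859 to 10009 TPM in knockouts) and 2 of 6 epithelial genes lower. The U and DU pieces of a mouse are parts of 1 uterus and are not independent of each other. On the separate list of further macrophage genes, Ly6c2, a marker of inflammatory monocytes, fell in knockout U (74 ± 23.3 to 13.7 ± 5.99 CPM, SD, n = 6 and 4, log2 difference -2.43 ± 0.41, adjusted p = 0.00114), and in DU by 1.91. Ctss, a lysosomal protease of antigen-presenting cells, fell by 1.18 in U and by 1.11 in DU.

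The difference between tissues was tested directly at D0.5. The knockout effect in LE minus that in U was called for 6 of 41 members, all positive, where 1.63% of 16665 genes were called. They were Ptprc (2.73 ± 0.64, adjusted p = 0.0142), Itgax (2.73 ± 0.62, adjusted p = 0.0107), Fcgr3 (2.78 ± 0.75, adjusted p = 0.0433), Adgre1 (2.32 ± 0.59, adjusted p = 0.0278), C1qb (2.31, adjusted p = 0.0487) and Trem2. With the mouse as a block, on mice with both tissues, Ptprc (2.86, adjusted p = 0.00168), Fcgr3 (3.12, adjusted p = 0.00215) and Itgax (2.85, adjusted p = 0.0055) were called and Adgre1 (adjusted p = 0.163), C1qb (adjusted p = 0.113) and Trem2 (adjusted p = 0.757) were not. In the fits that left out 1 of the 26 libraries, the call without the block held throughout for Ptprc, Itgax and Trem2 and was lost in 4 for Adgre1, 16 for Fcgr3 and 17 for C1qb. On log2(TPM + 1) the calls of Itgax and Trem2 were lost. At D3.5 no member differed between tissues in this test, in either fit (edgeR; 6 of 41 had an unadjusted p under 0.05, and DESeq2 called 2).

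**Figure D3:**
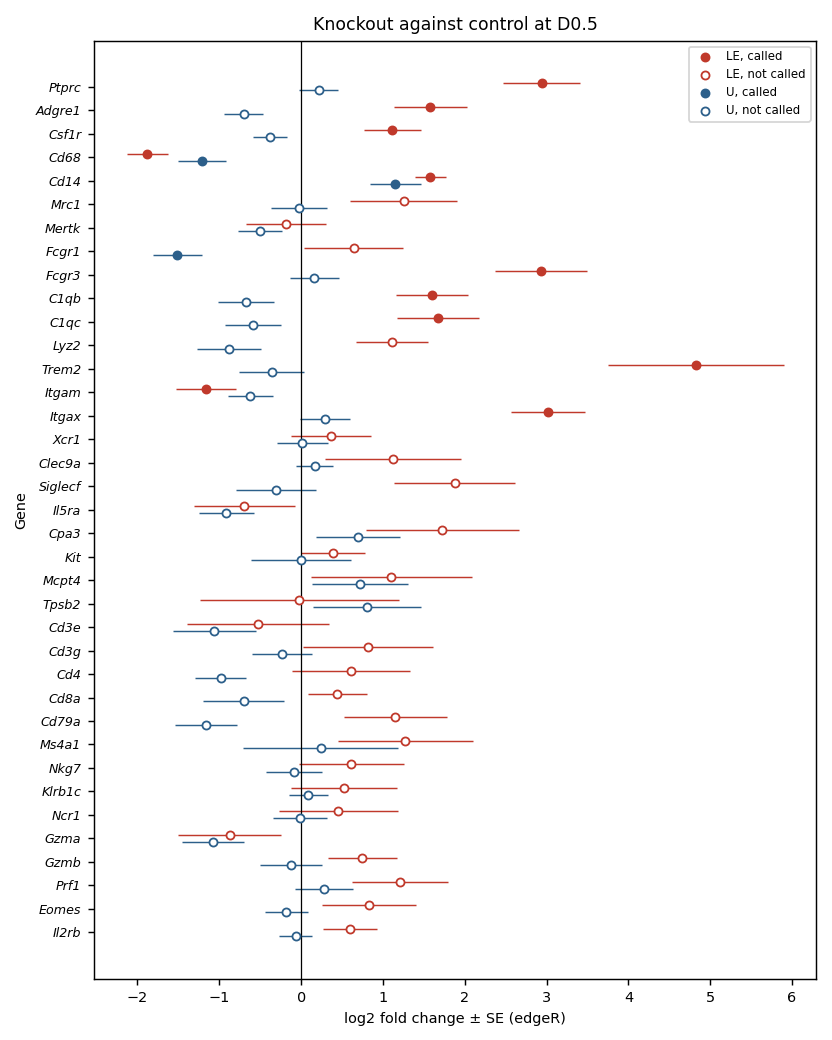
Log2 fold changes of the knockouts against the controls at D0.5 (edgeR, ± SE) for each tested marker, by lineage, in LE and U, with filled symbols for genes called at adjusted p under 0.05. The filled LE symbols to the right of 0 are Ptprc, 7 macrophage genes and Itgax, and those to the left are Cd68 and Itgam.

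At D3.5 no macrophage, monocyte or dendritic cell marker was called between genotypes in LE. Ptprc measured 12.7, 12.8, 16.2 and 18.2 CPM in control LE at D3.5 and 6.16 to 15.1 CPM (median 9.32) in the 6 knockout libraries. Cd14 measured 128, 159, 190 and 253 CPM against 144 to 230 CPM (median 186), and Cd68 7.23, 9.58, 9.68 and 17.0 CPM against 5.81 to 15.3 CPM (median 11.2). These ranges overlapped, and none of the 13 tested macrophage genes was called (edgeR), where 13.5% of all genes were called (7.79% higher, 5.7% lower). Of the 37 members 3 were called lower, all of them NK cell genes. The change of the knockout effect between days was itself called in LE for 13 of 37 members, 1 positive and 12 negative, where 16.5% of genes were called (9.52% positive, 6.99% negative). It was -3.55 ± 0.74 for Ptprc (adjusted p = 0.00137), -3.60 ± 0.90 for Fcgr3 (adjusted p = 0.00614), -2.55 ± 0.70 for Itgax (adjusted p = 0.0121), -1.55 ± 0.30 for Cd14 (adjusted p = 0.000627) and 1.85 ± 0.40 for Cd68 (adjusted p = 0.00202). In U the same test called no member (1.43% of all genes; 5 of 41 members had an unadjusted p under 0.05, and DESeq2 and limma on TPM each called 1).

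Between D0.5 and D3.5 Cd14, Cd68 and Itgam fell in LE, U and DU of both genotypes. In control LE the fall from D0.5 to D3.5 was -4.48 ± 0.37 for Cd68 and -4.22 ± 0.54 for Itgam, which went from 324 ± 128 to 17.4 ± 11.9 CPM (SD, n = 9 and 4). Cd14 fell by 1.93 in control LE and by 3.48 in knockout LE, by 2.99 and 4.04 in U, and in knockout DU by 4.19. Fcgr1, Fcgr3 and Ptprc fell in U and DU of both genotypes, Fcgr1 by 2.24 in control U and by 1.10 in knockout U. Of these calls, those of Ptprc in control U (7 of 11 fits that left out 1 library), Fcgr1 in knockout DU (4 of 6) and Fcgr3 in control DU (2 of 7) were lost in some fits. Adgre1 fell in control U (by 0.70) and control DU (by 0.72). Lyz2 gave -1.10 in control U and -1.28 in control DU, calls that were lost in 5 of 11 and 5 of 7 such fits (adjusted p up to 0.0758 and 0.135) and on log2(TPM + 1). Mertk, the receptor with which macrophages take up dying cells, rose in knockout U (15.6 ± 3.28 to 30.3 ± 9.63 CPM, SD, n = 4 and 5, 0.96 ± 0.28, adjusted p = 0.0154; 0.0583 without mouse 27). In knockout DU Mertk gave 0.87 ± 0.28 (adjusted p = 0.0294), which was lost without any 1 of mice 25, 27, 32, 34 and 35 (0.59 without mouse 27).

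In control LE 5 of the 13 tested macrophage members rose with the day and 3 fell, and in knockout LE 3 rose and 4 fell. C1qb, in contrast to Cd14, Cd68 and Itgam, rose from 3.67 ± 2.51 to 24.8 ± 14.0 CPM in control LE (log2 2.76) and from 11.1 ± 4.52 to 27.4 ± 20.6 CPM in knockout LE (1.31, adjusted p = 0.0297), and C1qc by 3.12 and 1.35 (adjusted p = 0.0487 in knockouts). Both knockout calls rested on the libraries of mice 35, 36 and 37: without the 3 the differences were 0.15 for C1qb (adjusted p = 0.865) and 0.15 for C1qc (0.884), and without mouse 36 alone 0.87 (0.145) and 0.83 (0.227). When any 1 library was left out they were lost in 5 and 9 of 13 fits. The third macrophage member called higher in knockout LE, Trem2 (2.46), gave 1.24 without the 3 (adjusted p = 0.392). Trem2, at 0 in 7 of 9 control LE libraries of D0.5, measured 1.11, 2.89, 3.72 and 4.27 CPM at D3.5. Adgre1 (2.41 ± 0.50), Itgax (2.05 ± 0.50) and Lyz2 (2.35) rose in control LE. Fcgr3 and Ptprc fell in knockout LE (-3.93 ± 0.69 and -2.97 ± 0.55), and their control LE libraries gave no call. Over all members, 18 rose and 4 fell in control LE, where 44% of genes were called (21.2% higher, 22.8% lower), and 6 rose and 8 fell in knockout LE, where 41.6% were called (21.4% higher, 20.2% lower). The corresponding counts were 5 and 9 in control U (34.2% of genes called, 16.2% higher and 18% lower). In knockout U they were 7 and 6 (25.5%, 10.9% higher and 14.6% lower). In control DU they were 3 and 11 (34.4%, 15.9% higher and 18.5% lower), and in knockout DU 4 and 10 (30.2%, 12.9% higher and 17.3% lower). Neutrophil genes fell over the same days, to a median sum of 13.4 TPM in control and 9.81 TPM in knockout LE, and the summed erythroid genes rose in control LE from a median of 83.2 to 1192 TPM. Their part in these changes was not tested. Without the knockout libraries of mice 35, 36 and 37, the count of called members in knockout LE went from 14 to 7.

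Of the 4 dendritic cell members 2 were called higher with the day in U of either genotype. Of all genes 16.2% were called higher in control U and 10.9% in knockout U. Neither Itgax (-0.04 in controls, -0.32 in knockouts) nor Xcr1 was called. Clec9a, a receptor for dead cells on cross-presenting dendritic cells, measured 4.39 to 6.43 CPM (median 4.67) in the 6 control U libraries of D0.5 and 8.57, 10.3, 10.3, 10.3 and 11.1 CPM in those of D3.5, without overlap (1.00 ± 0.21, adjusted p = 0.0009). It also rose in knockout U (0.84 ± 0.24, adjusted p = 0.0118), control DU (0.94 ± 0.29, adjusted p = 0.0241) and knockout DU (1.09 ± 0.32, adjusted p = 0.0221), and did not overlap in any of these. The DU calls were lost in 4 of 7 and 3 of 6 fits that left out 1 library, and both U calls were lost on log2(TPM + 1). Flt3, the receptor that drives dendritic cell development, gave 0.75 ± 0.26 in control U (adjusted p = 0.0307) and 0.81 ± 0.30 in knockout U (adjusted p = 0.0492). These calls were lost in 7 of 11 and 7 of 9 such fits, and without mouse 33 the knockout value was 0.66 (adjusted p = 0.123). Xcr1 is a chemokine receptor of the same dendritic cells as Clec9a. No dendritic cell member was called between genotypes in U or DU on either day (edgeR). In control LE Clec9a was at most 0.289 CPM at D0.5 and between 0 and 1.24 CPM at D3.5.

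No eosinophil member was called between genotypes in any tissue (edgeR). Siglecf, a sialic acid receptor of mouse eosinophils that some macrophages also carry, averaged 8.07 CPM in control U at D0.5, 6.47 in knockout U, and 4.83 and 7.97 CPM at D3.5. Prg2, the major basic protein gene, averaged 4.16 ± 4.02, 1.49 ± 1.14, 3.85 and 3.57 CPM in the same 4 groups. Ear2, a ribonuclease of a family of near-identical genes between which reads cannot be assigned with certainty, lay between 1.90 and 2.69 CPM on average. Among the 4 members tested in DU, the widest gap between genotypes was for Siglecf in DU at D3.5, at 3.16, 4.33 and 4.50 CPM in controls and 8.97, 12.3 and 12.5 CPM in knockouts (1.50 ± 0.40, adjusted p = 0.185), where the libraries did not overlap. With the day, Siglecf fell in control DU (-1.41 ± 0.38, adjusted p = 0.0116; 0.057 without mouse 16). Prg2 gave 2.15 ± 0.75 in knockout DU (adjusted p = 0.0439), a call lost in 5 of 6 fits that left out 1 library, with values from 1.60 without mouse 27 to 3.43 without mouse 26. Il5ra, the receptor chain for the eosinophil growth factor IL-5, rose in knockout U (2.22 ± 0.824 to 4.81 ± 1.87 CPM, SD, n = 4 and 5, 1.10 ± 0.34, adjusted p = 0.022), and was not called without mouse 33 (0.93, adjusted p = 0.0606) or without mouse 21, 27 or 32. In LE Siglecf reached at most 2.49 CPM, in a knockout library of D0.5, and was called lower at D3.5 in controls (-3.15, adjusted p = 0.0377) and knockouts (-3.16, adjusted p = 0.00702). The control value ran from -2.75 without mouse 11 to -6.16 without mouse 14, and its call was lost without mouse 4, 6, 11, 15 or 16. The knockout value without mice 35, 36 and 37 was -2.64 (adjusted p = 0.0969). Ccl11, which encodes eotaxin, fell between the days in U from 112 ± 60.9 to 9.19 ± 2.99 CPM in controls (SD, n = 6 and 5, -3.61 ± 0.38, adjusted p = 3.66e-07) and from 223 ± 104 to 9.59 ± 2.08 CPM in knockouts (SD, n = 4 and 5, -4.54 ± 0.41, adjusted p = 1.06e-07).

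Alox15, a lipoxygenase placed on the list of further eosinophil genes, behaved unlike the eosinophil members. It rose in control LE from 134 ± 59.7 CPM at D0.5 to 2052 ± 812 CPM at D3.5 (SD, n = 9 and 4, 3.94 ± 0.44, adjusted p = 5.51e-08), and was 4.01-fold lower in knockout LE at D3.5, at 223 to 907 CPM (-2.0 ± 0.49, adjusted p = 0.00633). Siglecf was at most 0.138 CPM in the same control LE libraries of D3.5, and Epx averaged 0 TPM there.

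Kit, the receptor for stem cell factor, was the only mast cell member called between genotypes, at D3.5 in the digested uterus. Its level did not follow the mast cell protease genes across tissues. In LE against U, Cpa3 (-4.34), Mcpt4 (-4.36) and Tpsb2 (-4.72) were called lower and Kit was not. Which cells gave the Kit RNA was not tested. Kit measured 76.1, 76.9 and 86.3 CPM in control DU at D3.5 and 16.5, 24.5 and 27.4 CPM in knockout DU, a 3.49-fold difference without overlap (-1.80 ± 0.18, adjusted p = 0.000786). It was the only one of 41 members called there, where 0.574% of genes were called in all and 0.457% lower. At D0.5 the DU libraries measured 44.7, 51.7, 53.3 and 64.7 CPM in controls and 37.9, 40.8 and 44.7 CPM in knockouts, and passed no test. Kit thus rose with the day in control DU (0.57 ± 0.16, adjusted p = 0.0144; 0.0642 without mouse 14) and fell in knockout DU (-0.85 ± 0.18), and that change of the knockout effect was itself called (-1.42 ± 0.24, adjusted p = 0.0117), where 1.88% of genes were called (0.932% negative) and Cd14 (-1.29, adjusted p = 0.0496) was the other of 2 members. The Cd14 call there was lost in 9 of 13 fits that left out 1 library, and the Kit call in none.

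In untreated uterus at D3.5 Kit measured 12.9, 51.5, 52.6, 58.9 and 91.8 CPM in controls and 7.03, 9.59, 17.7, 21.7 and 86.3 CPM in knockouts, where 86.3 CPM is the library labelled knockout from mouse 33. The difference was -0.91 ± 0.61 and was not called. Without mouse 33 it was -1.94 (adjusted p = 0.153). No member was called in U at D3.5 (edgeR, where 0.0185% of genes were called). There 2 of 41 members had an unadjusted p under 0.05 (edgeR), and DESeq2 called 0. Without mouse 33, 112 of 16167 genes were called in U at D3.5 (42 higher and 70 lower in knockouts), and still 0 of 41 members. In LE at D3.5 Kit measured 29.3, 79.7, 150 and 176 CPM in controls and 29.8 to 129 CPM (median 48.4) in knockouts, without a call (-0.88 ± 0.49). Between the days Kit rose in LE, from 15.9 ± 9.76 to 109 ± 66.8 CPM in controls (SD, n = 9 and 4, 2.77 ± 0.44) without overlap, and from 20.9 ± 10.0 to 59.3 ± 35.5 CPM in knockouts (SD, n = 7 and 6, 1.51 ± 0.44). Kitl, which encodes the ligand of Kit, was higher in knockout than control LE at D3.5 (6.26, 7.19, 9.71 and 12.0 CPM in controls, 10.8 to 51.5 in knockouts, 1.83 ± 0.56, adjusted p = 0.029).

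None of the 3 mast cell protease genes was called where Kit was. Cpa3, carboxypeptidase A3, measured 5.21, 6.78 and 10.7 CPM in control DU at D3.5 and 9.69, 9.84 and 10.8 CPM in knockout DU. Mcpt4, a chymase of connective tissue mast cells, measured 4.50, 5.50 and 9.42 CPM against 9.60, 10.4 and 11.5 CPM. Neither gene was called in any genotype comparison of LE, U or DU, and nor was Tpsb2. In control U Cpa3 went from 4.18 ± 3.16 to 10.3 ± 4.18 CPM between the days (SD, n = 6 and 5, 1.26, adjusted p = 0.0495), a call that was lost in 9 of 11 fits that left out 1 library (adjusted p up to 0.141). In control LE Mcpt4 (3.74, adjusted p = 0.00562) and Cpa3 (3.50, adjusted p = 0.00651) rose with the day, as Kit did, and neither call was lost when any 1 library was left out. In control LE of D3.5 Cpa3 was 0, 0.607, 1.74 and 1.79 CPM, Mcpt4 was at most 3.49 CPM and Tpsb2 at most 1.97 CPM, in libraries where Kit was at 29.3 CPM or more. Mcpt4 and Tpsb2 belong to families of similar protease genes. Hdc, the histamine-forming enzyme on the list of further mast cell genes, was far above them in LE: it measured 2251, 2355, 2629.8 and 2704 CPM in control LE at D3.5 and 450.2 to 1977 CPM in knockout LE, without overlap (-1.22 ± 0.36, adjusted p = 0.0232). At D0.5 Hdc was higher in the knockouts, in LE (1.11 ± 0.28, adjusted p = 0.00501), in U (110 ± 35.7 and 361 ± 87.8 CPM, SD, n = 6 and 4, 1.71 ± 0.30, adjusted p = 0.00179) and in DU (1.75).

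**Figure D4:**
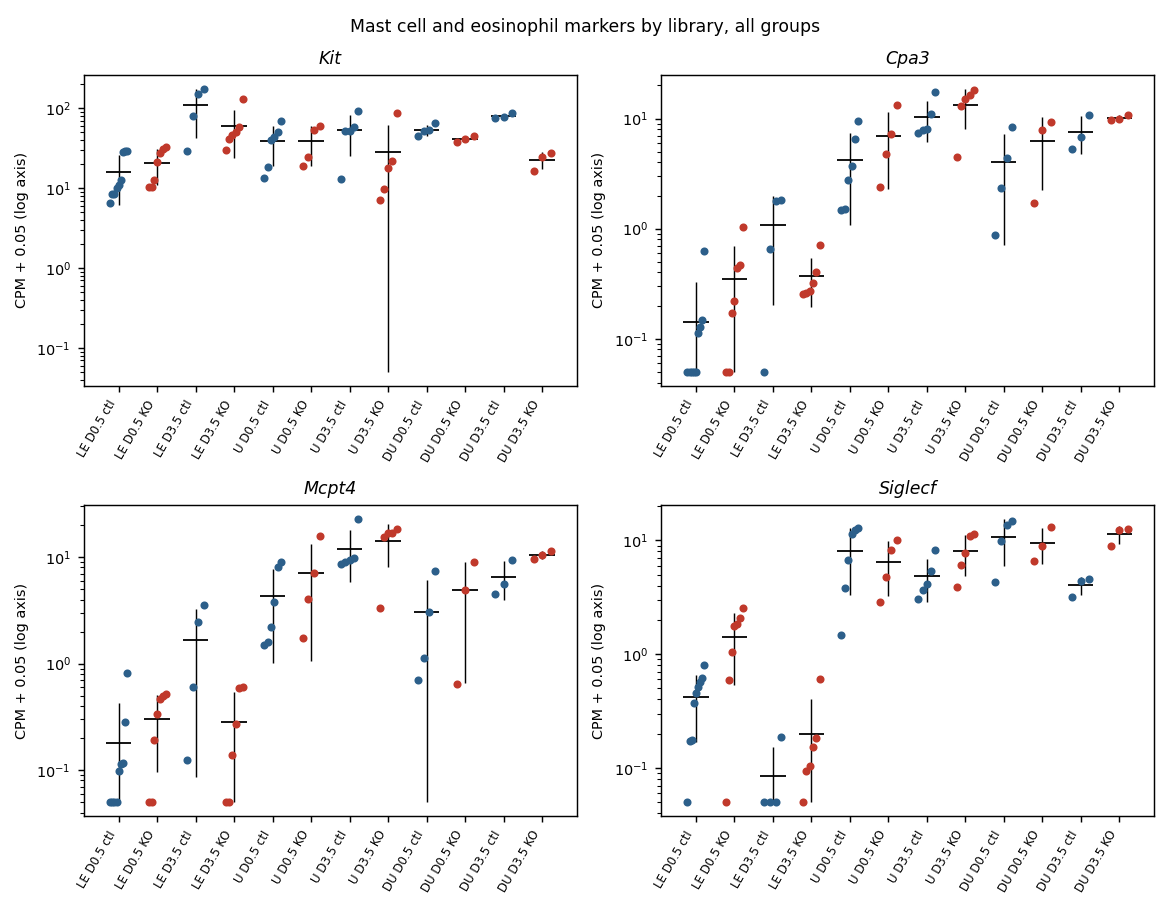
Kit, Cpa3, Mcpt4 and Siglecf in all 12 groups, with a point per library (CPM + 0.05, log axis; blue control, red knockout), the group mean as a horizontal line and ± 1 SD as a vertical line, which ends at 0.05 where it would pass below 0 CPM. Kit is lower in all 3 knockout DU libraries of D3.5 than in the 3 controls, while Cpa3 and Mcpt4 are not, and the single high knockout point for Kit in U at D3.5 is mouse 33.

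Of the 8 NK and cytotoxic members, 3 were lower in knockout LE at D3.5, where 5.7% of genes were called lower. All 8 differences were negative, with a median of -1.67 (-0.01 for all genes). Il2rb, the receptor chain shared by IL-2 and IL-15, measured 9.21, 10.2, 14.6 and 21.2 CPM in control LE and 3.04 to 6.55 CPM in the 6 knockout libraries, without overlap (-1.54 ± 0.41, adjusted p = 0.0121). Eomes, a transcription factor of NK cells, measured 0.921, 1.51, 2.62 and 2.66 CPM against 0.044 to 0.678 CPM (-2.56 ± 0.73, adjusted p = 0.0185). Ncr1, the NK receptor NKp46, measured 0.459, 1.01, 1.05 and 3.11 CPM against 0 to 0.394 CPM (-3.06 ± 0.95, adjusted p = 0.0305). The knockout libraries lay below the controls for all 3 genes, at low levels. Gzmb (-1.55, adjusted p = 0.0537) and the pore-forming protein gene Prf1 (-1.69, adjusted p = 0.149) were not called. Of 8 further NK and cytotoxic genes tested, Klrk1, the activating receptor NKG2D, was lower (-2.69 ± 0.66, adjusted p = 0.00653) and Itga2, an integrin chain also made by other cells, was higher (3.08 ± 0.51, adjusted p = 0.000147). Genes of other cell types were lower in the same libraries: all 3 platelet genes were called lower (summed level 7.99 to 15.5 TPM in controls and 3.20 to 4.79 TPM in knockouts, median log2 difference -2.99), and 4 of 4 erythroid genes (median -2.04), 2 of 2 B cell members (-2.03) and 6 of 6 stromal fibroblast genes (-0.81) had negative differences with no call. Their part in the NK differences was not tested.

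The calls of those 3 genes rested on the libraries included. Without the knockout mice 35, 36 and 37 the differences were -1.60 for Il2rb (adjusted p = 0.0722), -1.82 for Eomes (0.218) and -2.99 for Ncr1 (0.155). Without control mouse 16 they were -1.25 (adjusted p = 0.0655), -2.37 (0.0515) and -2.33 (0.134). The Eomes call was also lost without control mouse 11, and the Ncr1 call without knockout mouse 31, 34, 35 or 36. On log2(TPM + 1) Il2rb gave -0.75 (adjusted p = 0.0531), and Ncr1 and Eomes were below the 1 TPM limit of that test. In U at D3.5 Il2rb averaged 21.6 TPM in controls and 16.9 TPM in knockouts and Ncr1 8.63 and 7.01 TPM, with no call. Between the days in control LE Il2rb (1.82), Eomes (2.29) and Ncr1 (2.21) rose, the last with its call lost without mouse 16 (1.48, adjusted p = 0.195). Klrb1c, the NK1.1 receptor (1.80, adjusted p = 0.0464), and Nkg7 (1.76, adjusted p = 0.0498) were called as well, and lost in 9 and 11 of 13 fits that left out 1 library (Nkg7 1.11 without mouse 11). In knockout LE Gzmb (-1.24, adjusted p = 0.0403) and Prf1 (-1.74, adjusted p = 0.0413) were called lower with the day and lost in 7 and 9 of 13 such fits. Without mice 35, 36 and 37 they gave -0.76 (adjusted p = 0.352) and -1.31 (0.271). The change of the knockout effect between days was called for Ncr1 (-3.52), Eomes (-3.39), Prf1 (-2.90), Gzmb (-2.30) and Il2rb (-2.13). It was called for Il2rb and Eomes in each of the 26 fits that left out 1 library, and was lost for Ncr1 in 15 of them, for Prf1 in 9 and for Gzmb in 1. Without mice 35, 36 and 37 it was still called for Il2rb (-2.22, adjusted p = 0.0222) and was not for Eomes (-2.68, 0.0847), Ncr1 (-3.47, 0.117), Gzmb (-1.80, 0.139) and Prf1 (-2.45, 0.177). Gzma fell between the days in knockout DU (6.70 ± 1.95 to 1.43 ± 0.446 CPM, SD, n = 3 and 3, -2.23 ± 0.40, adjusted p = 0.00111), and its genotype difference in DU at D3.5 (-1.80 ± 0.40, adjusted p = 0.0796) was not called although the libraries did not overlap. Granzyme genes form a family of similar sequences.

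**Figure D5:**
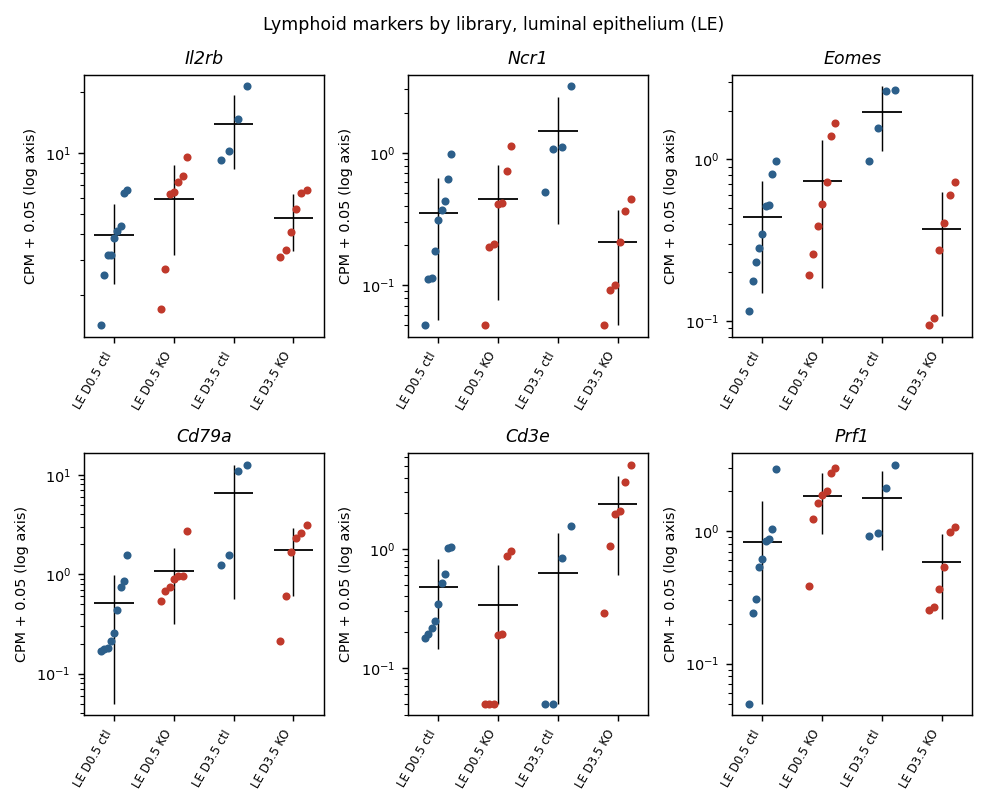
Il2rb, Ncr1, Eomes, Cd79a, Cd3e and Prf1 in the 4 LE groups, with a point per library (CPM + 0.05, log axis; blue control, red knockout), the group mean as a horizontal line and ± 1 SD as a vertical line, which ends at 0.05 where it would pass below 0 CPM. For Il2rb, Ncr1 and Eomes all 6 knockout libraries of D3.5 lie below the 4 controls.

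T cell markers were low in all tissues, and no T cell member was called between genotypes (edgeR). In U at D0.5 all 4 tested members had negative differences (median log2 difference -0.84, against 0.02 for all genes). The 5 further T cell genes tested there were also all negative (median -0.71), and 1 was called lower, where 2.96% of all genes were. Cd3e, a signalling chain of the T cell receptor complex, measured 2.22, 3.78, 4.77 and 5.34 CPM in control DU at D0.5 and 1.24, 1.49 and 1.53 CPM in knockout DU (-1.49 ± 0.49, adjusted p = 0.0768), and Cd4, the co-receptor of helper T cells, averaged 7.94 ± 1.78 and 4.02 ± 1.51 CPM in U at D0.5 (SD, n = 6 and 4, -0.98 ± 0.31, adjusted p = 0.0772). Neither was called. Between the days Cd3e rose in knockout U (1.58 ± 0.842 to 5.01 ± 3.43 CPM, SD, n = 4 and 5, 1.63 ± 0.53, adjusted p = 0.0271), knockout DU (1.64 ± 0.51, adjusted p = 0.027) and knockout LE (2.93, adjusted p = 0.0158). Cd3g, another chain of that complex, rose in knockout U (1.22 ± 0.38, adjusted p = 0.023) and knockout LE (2.49 ± 0.87, adjusted p = 0.0229). Without mice 35, 36 and 37 the LE values were 1.76 for Cd3e (adjusted p = 0.251) and 0.08 for Cd3g (0.961), and without mouse 36 alone Cd3g gave 1.61 (0.136). The calls in U were lost in 5 (Cd3e) and 4 (Cd3g) of 9 fits that left out 1 library, and that of Cd3e in DU in 4 of 6 (0.98 without mouse 35). In controls neither was called between the days in any tissue, and the difference between genotypes in this change was not called in any tissue either. The knockout LE libraries of D3.5 that held most Cd3g were those of mice 36 (8.79 CPM), 35 and 37 (2.86 CPM each). In LE the co-receptor gene of cytotoxic T cells, Cd8a, rose in controls (1.19 ± 0.41, adjusted p = 0.0204; not called without mouse 11 or 16) at levels of 0.509 to 2.96 CPM.

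Of the 2 B cell members, both rose with the day in control LE, 1 in control U, knockout U and control DU, and neither in knockout LE or knockout DU. The shares of all genes called higher were 21.2% in control LE, 16.2% in control U, 10.9% in knockout U and 15.9% in control DU. They were 21.4% in knockout LE and 12.9% in knockout DU. Cd79a, a signalling chain of the B cell receptor, rose in control U (4.5 ± 0.884 to 10.3 ± 5.97 CPM, SD, n = 6 and 5, 1.19 ± 0.34, adjusted p = 0.00866; 0.77 and 0.0558 without mouse 14), knockout U (1.97 ± 0.872 to 5.18 ± 2.05 CPM, SD, n = 4 and 5, 1.37 ± 0.39, adjusted p = 0.012) and control DU (0.90 ± 0.30, adjusted p = 0.0332, lost in 5 of 7 fits that left out 1 library). In LE it rose in controls (3.83 ± 0.70, adjusted p = 6.24e-05), to 1.2, 1.52, 10.9 and 12.5 CPM, as did Ms4a1, which encodes CD20 (3.47). Mean Cd79a was lower in knockouts than controls in U on both days (-1.17, adjusted p = 0.0834 and -0.99, adjusted p = 0.769) and in DU (-1.04, adjusted p = 0.065 and -1.09, adjusted p = 0.277), and none of these was called. Jchain, the joining chain of secreted IgA and IgM and a plasma cell gene from a separate list, rose with the day in LE, U and DU of both genotypes (by 0.83 to 5.34), and was called between genotypes. It measured 274 to 539 CPM in control U at D0.5 and 61.9, 66.7, 90.0 and 97.9 CPM in knockout U (-2.39 ± 0.36, adjusted p = 0.000469), and it was lower in knockout DU on both days (-2.27 ± 0.31, adjusted p = 0.000859 and -1.74 ± 0.31, adjusted p = 0.0216), without overlap in any of the 3. In U at D3.5 the Jchain libraries overlapped at mouse 33 (839 CPM, against 169 to 330 CPM in the other 4 knockouts and 541 to 938 CPM in controls).

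Growth factors for these receptors, from a list of 8 ligands, changed between the days in every tissue. Csf1 and Il34, both ligands of Csf1r, fell in LE, U and DU of both genotypes. In U Csf1 fell from 125 ± 46.8 to 57.4 ± 6.26 CPM in controls (SD, n = 6 and 5, -1.12 ± 0.26, adjusted p = 0.002) and by 1.77 in knockouts, and Il34 fell by 1.83 and 2.22. Gas6, a ligand of Mertk, rose in all 6 of these comparisons, by 0.82 to 2.44. Kitl rose in 5 of the 6 and was not called in control LE (1.02 ± 0.48, adjusted p = 0.0867). Between genotypes, 2 of 7 tested ligands were higher in knockout LE at D0.5 (10.9% of all genes), Il34 (6.76 ± 2.34 and 19.9 ± 7.74 CPM, SD, n = 9 and 7, 1.56 ± 0.32, adjusted p = 0.000601) and Pros1, a second ligand of Mertk (0.97), and none was called in U or DU on either day (edgeR). Of 10 genes for the recruitment of myeloid cells and eosinophils, 1 was called between genotypes in DU at D0.5, Csf3 (1.74 ± 0.48, adjusted p = 0.0421), and 1 in LE at D3.5, Cx3cl1 (1.11 ± 0.33, adjusted p = 0.025), both higher in knockouts, and none was called in LE or U at D0.5 (edgeR; 3 and 2 had an unadjusted p under 0.05). With the day, Ccl2 and Ccl7, which attract monocytes, Cx3cl1 and Csf3 fell in LE, U and DU of both genotypes, Ccl2 by 4.54 in control U and by 6.96 in knockout U.

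The digested and untreated pieces differed in many of these transcripts only when the mouse was taken into account. Between DU and U over all groups no member was called without regard to the mouse (edgeR; 10 of 41 had an unadjusted p under 0.05, and DESeq2 called 1), and no gene of 16782 was (0% called). The mouse is a true pairing here, and with it as a block 4 members were higher in DU and 20 lower. Of all genes 42.6% were called in that fit, 19.5% higher and 23.2% lower. The 4 were Kit (0.76), Mertk (0.49), Mrc1 (0.34) and Itgam (0.25). Among the falls were -0.52 for Lyz2, -0.49 for Cd14 and -0.47 for Cd68. Mcpt4 fell by 0.90.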

How the data were processed

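RNA from 59 libraries of 29 mice was sequenced. The authors deposited estimated counts and TPM for 21706 genes. Transcripts were quantified with kallisto 0.46.1 and the genome build is GRCm39, per the submitters' processing notes. The deposited estimated counts were rounded to whole numbers and tested with edgeR 4.0.16 (quasi-likelihood, TMM, filterByExpr with a minimum count of 10 and a minimum total of 15) in R 4.3.3, in 1 fit per tissue and joint fits of DU with U and LE with U, with group as the only term. P-values were adjusted by Benjamini-Hochberg over all tested genes, and genes were called at an adjusted p under 0.05. Standard errors are the log2 difference divided by the square root of F. Levels between genes are compared in the deposited TPM, and levels between libraries in CPM computed from the counts. Alternatives were DESeq2 1.42.0, its size factors in edgeR, no filter, limma 3.58.1 on log2(TPM + 1) restricted to a mean of 1 TPM or more, each library left out, and the mouse as a block. The edgeR step was run on counts simulated from its own fitted spread, with no library set apart and no shift in tissue makeup. That run does not show how the step behaves under either. Total counts limit the precision of low genes, and a level of 3 counts was taken as the floor of detection.

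The members and lists were chosen with earlier results of these data known. All 43 were accounted for by lineage. The rule was to name, in each comparison, up to 3 called members per lineage of smallest adjusted p, or the member of highest TPM where none was called. Up to 2 called genes of each other list were to be named. In some comparisons more called members were named, as in LE at D0.5, where all called macrophage members are. Further genes (Alox15, Ccl11, Ccl2, Ccl7, Cx3cl1, Csf3, Hdc, Ly6c2, Ly6g, Ctss, called members beyond that rule and members that were not called) were named after their values were seen. Libraries of the same mouse number share an animal. Deviations from the group means correlated within mice between U and DU (13 mice, median r 0.407, lowest 0.162) and between LE and U (17 mice, median r 0.290, lowest -0.165). No 2 replicates of a group agreed within counting noise (134 pairs, lowest chi-square per degree of freedom 9.385).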

Additional observations from a re-analysis of the deposited data

Results flagged for a closer look

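In groups of 4 to 10 libraries, a library was set apart where its gap to the nearest other was large for the group's range (Dixon's test, which chance passes in about 1 of 20 groups). Control LE library 2 of D0.5 was highest for Ptprc (34.1 CPM), Csf1r (53.0 CPM), Fcgr1 (7.04 CPM), Itgax (5.43 CPM) and the summed NK and cytotoxic genes (24.6 TPM). Control U library 14 of D3.5 was highest for Prg2 (7.12 CPM), Ear2 (5.25 CPM), Mcpt4 (22.8 CPM), Tpsb2 (26.3 CPM), Cd3e (4.35 CPM), Cd3g (10.1 CPM), Cd79a (20.9 CPM) and the summed B cell genes (16.0 TPM), and control LE library 14 of D3.5, from the same mouse, was highest for the summed T cell genes (4.77 TPM). Knockout U library 33 of D3.5 was highest for Kit (86.3 CPM) and lowest for Mcpt4 (3.27 CPM), Tpsb2 (2.15 CPM) and Prf1 (5.32 CPM).

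Knockout LE library 34 of D3.5 was highest for Kit (129 CPM) and the summed mast cell genes (35.0 TPM, Kit included), and library 36 of that group for Cd3g (8.79 CPM). Knockout LE library 22 of D0.5 was highest for Cd79a (2.70 CPM) and the summed B cell genes (3.52 TPM). Knockout U library 34 of D3.5 was highest for Xcr1 (9.11 CPM) and Prg2 (8.02 CPM). Knockout U library 27 of D0.5 was lowest for Flt3 (1.89 CPM) and highest for Gzma (7.59 CPM). Among control U libraries of D0.5, library 2 was highest for Mrc1 (181 CPM), library 9 for Prg2 (12.0 CPM), and library 8 was lowest for Xcr1 (1.04 CPM). Control DU library 8 of D0.5 was highest for Cd163 (9.76 CPM).

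The knockout effect differed between D0.5 and D3.5 by edgeR's interaction test in LE for Cd14 (-1.55, adjusted p = 0.000627), Trem2 (-4.82, 0.02), Lyz2 (-2.14, 0.0391), Gzmb (-2.30, 0.0201), Il2rb (-2.13, 0.00548), Prf1 (-2.90, 0.0364), Itgax (-2.55, 0.0121), Ncr1 (-3.52, 0.0423), Eomes (-3.39, 0.0121), Cd79a (-3.08, 0.0299), Cd68 (1.85, 0.00202), Fcgr3 (-3.60, 0.00614) and Ptprc (-3.55, 0.00137), and in DU for Cd14 (-1.29, 0.0496) and Kit (-1.42, 0.0117). At D0.5 it differed between LE and U for Trem2 (5.37, 0.0104), Adgre1 (2.32, 0.0278), C1qb (2.31, 0.0487), Itgax (2.73, 0.0107), Fcgr3 (2.78, 0.0433) and Ptprc (2.73, 0.0142). Beside those given in the report, 1 library left out ended the interaction call in LE for Lyz2 in 12 of 26 fits and for Cd79a in 3. Without knockout mice 35, 36 and 37 the LE value of Cd79a was -3.03 (adjusted p = 0.0843).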

How the results depend on the processing

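No direction of a called member reversed under any alternative run. Counts of called members that moved by more than 1.5 times were as follows. With limma on log2(TPM + 1), knockout against control gave 0 in LE at D3.5, 6 in DU at D0.5 and 2 in DU at D3.5. In the same test the days in control LE gave 13, and the change of the knockout effect between days gave 7 in LE and 1 in U. In LE that test covered only 20 members, against 37 in the main fit, so its LE counts are not on the same base. DESeq2 gave 7 for knockout against control in U at D0.5, 7 in DU at D0.5 and 3 in DU at D3.5, 1 and 5 for the change between days in U and DU, 1 for DU against U and 2 for the knockout effect in LE minus U at D3.5. DESeq2 size factors in edgeR gave 1 for the change between days in DU. Without the knockout mice 35, 36 and 37, LE at D3.5 gave 0 and the days in knockout LE gave 7. On the TPM scale the median of all genes shifted by 0.38 between genotypes in LE at D3.5 and by 0.42 between the days in knockout LE, and TMM-scaled changes are relative to the median gene.

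With the mouse as a replicate block, DU against U gave 24 called members in place of 0, and the knockout effect in LE minus U at D0.5 gave 3 in place of 6. It moved no other count by over 1.5 times.

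When each library was left out in turn, knockout against control gave 10 to 14 called members in LE at D0.5, 0 to 4 in LE at D3.5 (0 without control 16), 1 to 3 in U at D0.5 (1 without knockout 27), 0 to 0 in U at D3.5, 2 to 6 in DU at D0.5 (6 without control 1, 4 without control 8 or knockout 26) and 1 to 1 in DU at D3.5. The days gave 18 to 26 in control LE, 8 to 14 in knockout LE (8 without knockout 36), 9 to 15 in control U (9 without control 5, 12 or 13), 8 to 13 in knockout U (8 without knockout 27), 8 to 15 in control DU (9 and 8 without controls 11 and 14) and 9 to 14 in knockout DU (9 without knockout 27 or 35). The change of the knockout effect between days gave 8 to 16 in LE (8 without control 11), 0 to 1 in U (1 without control 1) and 1 to 4 in DU (4 without control 1, 1 without any of 9 others). DU against U gave 0 to 0 and LE against U 37 to 38. The knockout effect in LE minus U gave 3 to 10 at D0.5 (10 without control LE 2, 3 without knockout U 21, 25 or 26) and 0 to 1 at D3.5 (1 without knockout LE 32). The cause of these differences was not tested.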
